A study of Mus musculus with 4 samples.

Results

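The cells described here were CD8+ T cells of the mouse liver that carried transcripts of Tox together with Gzmk or Pdcd1. They were picked as candidates for exhausted-like CD8+ T cells by these genes only. Cells with Gzmk but no Pdcd1 transcript were also let in, and whether the cells were exhausted was not tested. A barcode was counted as a member when it held at least 500 UMIs (unique molecular identifiers, each standing for 1 captured transcript), at least 300 genes and at most 10% mitochondrial UMIs. It also needed at least 1 UMI of Cd3e, Cd3d or Trac, at least 1 of Cd8a or Cd8b1, at least 1 of Tox and at least 1 of Gzmk or Pdcd1, and no UMI of Cd4 or Cd79a. The rule kept 559 of 33198 barcodes, which were 559 of 26825 barcodes past the quality limits, 4533 T barcodes and 2317 CD8 T barcodes. The members were chosen by the counts of Tox, Gzmk, Pdcd1 and the lineage genes, so the levels of those genes are given below as a description only.

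The livers came from male C57BL/6J mice, 7 weeks old when the diet began, that ate the FPC diet (Fructose, Palmitate, Cholesterol, and Trans-Fat) throughout, so that no group was on chow. P-LC24 mice had received 0.05% cholesterol and P-HC24 mice 1.25% cholesterol for 24 weeks, the Progression phase. Both sets then ate 0.05% cholesterol for another 8 weeks, the Intervention phase, and were sampled again at week 32 as I-LC32, which had low cholesterol throughout, and I-HC32, which had changed from high to low. Cells were drawn by fine needle aspiration (FNA) from 4 lobes of each of 3 mice, and the 12 biopsies of a condition were pooled into 1 library of non-parenchymal cells. The same 3 mice gave P-LC24 and I-LC32, and the same 3 gave P-HC24 and I-HC32, so the 4 libraries stand for 2 sets of mice. There was 1 library for each condition, and differences between diets therefore have no replicate check and no test.

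CD8+ T cells that meet their antigen over a long time can enter the state called exhaustion. The nuclear factor Tox sets up this program, inhibitory receptors such as PD-1 (the product of Pdcd1) build up on the cell surface, and a pool of progenitor cells that hold Tcf7 keeps feeding cells that have lost it. Cells with Gzmk (granzyme K), Ccl5 and Tox collect in inflamed and ageing tissues, and in fatty liver disease PD-1-bearing CD8+ T cells that stay in the liver have been studied as a source of tissue damage.

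Wherever 4 values follow each other, they belong to the libraries in the order P-LC24, P-HC24, I-LC32, I-HC32. There were 146, 58, 220 and 135 members, with a median depth of 5984.5, 6060, 6431.5 and 6044 UMIs, all below the 9823, 8710, 8390 and 8179 UMIs of the other CD8 T barcodes. Between 17 and 41 barcode sequences were shared by any pair of libraries, and none was a member in both. Haemoglobin Hbb-bs stood at 2697, 8220, 11832 and 143 CPM (the usual depth-scaled counts, here of the summed UMIs of the members), and its part in any result was not tested.

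A few members also carried macrophage transcripts. UMIs of 8 macrophage markers (Lyz2, C1qa and others) summed to 377, 11638, 48.0 and 1445 CPM. Barcodes with 5 or more of these UMIs numbered 1, 4, 2 and 3, and the 4 of P-HC24 held 99.3% of the 5628 macrophage marker UMIs there, at a median of 26120.5 UMIs a barcode. The median over all members of P-HC24 was 6060 UMIs. All UMIs of these deep barcodes enter the totals behind CPM, which lowers the P-HC24 CPM and the Prog ratios of genes they held little of. Scrublet, a doublet caller, marked 0, 0, 2 and 1 members, and none was taken out in the main values. The counts of each diet comparison are given below with and without the barcodes with 5 or more such UMIs, a choice made after the data were seen. Without them the markers summed to between 36.7 and 231 CPM. Summed B cell markers stood at 196, 1874, 464 and 396 CPM, NK markers at 89.4, 1042, 32.6 and 106 CPM with Klra4 and Klra8 at 0 in every library, and markers of gamma delta and NKT cells at 178, 53.8, 78.9 and 112 CPM with Sox13 at 0 in every library. In the other CD8 T barcodes the last list summed to between 27.0 and 46.0 CPM. One of its genes, Trgc2, a constant gene of the gamma chain, stood at 144, 45.5, 72.4 and 108 CPM in the members and passed the test as higher in each of the class contrasts below, with a log2 fold change of 2.67 (SE 0.37, edgeR adjusted p = 0.005) over the other CD8 T barcodes. Their part in the results was not tested.

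Ccl5 and Nkg7 belong to the label but not to the rule. They were picked with earlier results of these data known, so their levels are a description only. Both were also high in barcodes with Gzmk or Pdcd1 but no Tox, described below. Ccl5, a chemokine of effector and memory T cells, stood at 25565, 15816, 18584 and 15095 CPM, against 2461 to 5704 CPM in the other CD8 T barcodes. Nkg7, a cytotoxic granule protein, stood at 2338, 1946, 2061 and 2013 CPM in the same order, against 390 to 723 CPM. Every member of P-LC24, I-LC32 and I-HC32 had a Ccl5 and an Nkg7 UMI, and 3 of the 58 members of P-HC24 lacked Ccl5. B barcodes, which should lack Ccl5, held a UMI of it in 6.97% to 11.7% of cases. Foxp3, the factor of regulatory T cells, was at 0 in 3 libraries, and Klrb1c, the NK1.1 receptor of NK cells, held 0, 0, 1.19 and 0 CPM. A count of 0 in the 58 members of P-HC24 allows a share of up to 5.17% of members with a UMI of the gene, which is no limit on members that express it.

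Within the rule, levels of the gating genes varied between libraries. Tox stood at 2145, 854, 1268 and 1389.7 CPM, with medians of 10, 5, 7 and 7 UMIs a member. Pdcd1 stood at 185, 97.2, 93.1 and 162 CPM, and Gzmk at 449, 486, 287 and 471 CPM. P-LC24 thus held the most Tox and Pdcd1 transcripts, and I-LC32 the fewest Gzmk transcripts, among the 4 libraries. Members with both Gzmk and Pdcd1 made up 51.4% (exact Clopper-Pearson 95% interval 43.0 to 59.7), 31.0% (19.5 to 44.5), 23.6% (18.2 to 29.8) and 48.1% (39.5 to 56.9) of the members, most of the rest having Gzmk alone. Intervals here and below cover counting error only.

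Just inside the rule, members with exactly 1 Tox UMI numbered 11, 10, 14 and 12 and held Ccl5 at 12415, 14677, 20669 and 10772 CPM. Just outside it, barcodes with Gzmk or Pdcd1 but no Tox numbered 11, 17, 23 and 11 and held Ccl5 at 18066, 13655, 15269 and 10885 CPM. Barcodes with Tox but neither Gzmk nor Pdcd1 numbered 285, 201, 281 and 65, and their Ccl5 level was 2144, 2907, 5748 and 2718 CPM. The Gzmk or Pdcd1 gate thus separated Ccl5 levels more than the Tox gate did, and many of the other CD8 T barcodes carried Tox UMIs.

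The members' share of CD8 T barcodes was lowest in P-HC24 and highest in I-HC32. They made up 23.6% (20.3 to 27.1) of 619 barcodes, 10.1% (7.75 to 12.8) of 575, 27.7% (24.6 to 30.9) of 795 and 41.2% (35.8 to 46.7) of 328. The Prog difference, P-HC24 minus P-LC24, was -13.5 percentage points (Newcombe 95% interval -17.7 to -9.20). The Int difference, I-HC32 minus I-LC32, was 13.5 percentage points (7.20 to 19.8). Within 1 set of mice, the share thus went from 10.1% at week 24 to 41.2% at week 32 in the mice moved from high to low cholesterol, and from 23.6% to 27.7% in the mice kept on low cholesterol.

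The Int difference depended on the denominator. Of all T barcodes the members made up 14.6%, 5.67%, 14.4% and 13.7%, a Prog difference of -8.96 points and an Int difference of -0.725 points whose interval of -3.52 to 2.15 holds 0. Of all kept barcodes the Int difference was -1.13 points. CD8 T barcodes with a UMI of Ccl5 or Nkg7 numbered 558, 522, 749 and 310, which is most of the CD8 T barcodes. Over this denominator the shares were 26.2%, 11.1%, 29.4% and 43.5%, so this is not a check within effector cells alone. Thinning every barcode to 3000 UMIs gave differences of -12.8 and 10.5 points, with 6, 0, 8 and 7 members left out as shallower, and leaving out the macrophage-marked barcodes gave -14.0 and 14.6 points.

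**Figure D1:**
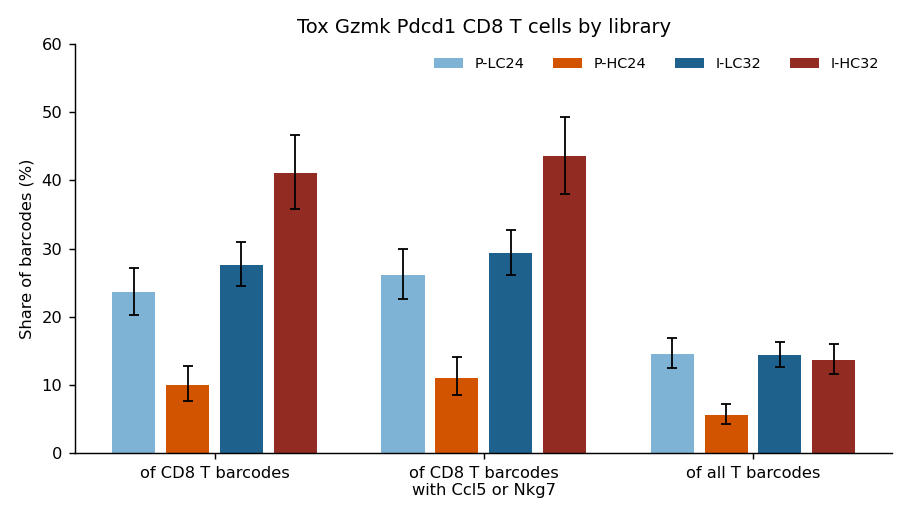
Share of Tox Gzmk Pdcd1 CD8 T cells (y axis, percent of barcodes) in the 4 libraries for 3 denominators (x axis), with bars for each library and lines for the exact 95% interval. Of CD8 T barcodes the share is 10.1% in P-HC24 and 41.2% in I-HC32; of all T barcodes I-LC32 and I-HC32 stand at 14.4% and 13.7%.

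The members were next set against the other CD8 T barcodes of the same libraries. UMIs were summed by library and class, and edgeR's quasi-likelihood test was fitted with library as a term on 10070 genes, with Benjamini-Hochberg adjusted p-values. The tested genes did not choose the members, but the 2 classes were split by values of the same barcodes. At an adjusted p of 0.05, 1052 genes were higher in the members (10.4% of those tested) and 1187 lower (11.8%). The median log2 fold change over all genes was -0.02 (0.26 without TMM scaling, where 2422 genes were higher and 686 lower). The 4 libraries came from 2 sets of mice, so these p-values measure the spread between libraries, not between animals.

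Receptors that restrain T cells were higher in the members as a list. Of 13 inhibitory receptors tested, 10 were higher and 1 lower, with a median log2 fold change of 2.16. Havcr2, which encodes TIM-3, stood at 143, 31.0, 27.3 and 36.1 CPM, while no library of the other CD8 T barcodes passed 0.988 CPM. Its log2 fold change was 6.11 (SE 0.51, edgeR adjusted p = 7.76e-05). Lag3, an inhibitory relative of CD4, stood at 144, 53.8, 73.6 and 62.4 CPM, against 0.854 to 4.78 CPM, a log2 fold change of 4.89 (SE 0.52, edgeR adjusted p = 0.00207). The 4 members' sums lay above the 4 other sums for both genes, and P-LC24 held the highest level of each.

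Tigit, which binds the poliovirus receptor, stood at 115, 35.2, 42.1 and 56.9 CPM, with a log2 fold change of 2.52 (SE 0.21, edgeR adjusted p = 1.09e-05). Entpd1, the ectoenzyme CD39, stood at 178, 64.1, 64.7 and 73.3 CPM, with a log2 fold change of 3.02 (SE 0.40). Ctla4, the competitor of CD28 for its ligands, stood at 464, 194, 329 and 368 CPM, and its log2 fold change of 1.93 (SE 0.38, edgeR adjusted p = 0.0398) lost the threshold without P-HC24 (adjusted p = 0.0716), I-LC32 (0.126) or I-HC32 (0.0643). Btla was the 1 receptor that was lower, at 6.20 to 30.8 CPM against 42.9 to 61.5 CPM. Cd160, a receptor that shares its ligand with BTLA, stood at 124, 10.3, 66.4 and 10.9 CPM, and its log2 fold change was 1.73 (SE 0.62, edgeR adjusted p = 0.145).

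Transcripts of Lag3 were found in a part of the members. A Lag3 UMI was seen in 41.1% (33.0 to 49.5), 25.9% (15.3 to 39.0), 22.3% (17.0 to 28.4) and 17.8% (11.7 to 25.3) of the members. After thinning to 3000 UMIs the shares were 26.4%, 13.8%, 13.2% and 9.38%, against 0.215% to 0.705% of the other CD8 T barcodes. B barcodes, which should lack Lag3, gave 0.0889% to 0.218% after the same thinning. The members' share was thus above this background in every library.

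Factors tied to the exhaustion program rose with the receptors. Of 13 tested, 11 were higher, with a median log2 fold change of 1.39. Maf, a factor that raises inhibitory receptor and Il10 expression, stood at 457, 143, 119 and 118 CPM, against 5.98 to 10.9 CPM, a log2 fold change of 4.29 (SE 0.49, edgeR adjusted p = 0.00771). Eomes, a T-box factor of memory and exhausted cells, stood at 185, 108, 117 and 289 CPM, a log2 fold change of 1.89 (SE 0.16). Nr4a2, a nuclear receptor induced by T cell receptor signals, stood at 457, 443, 273 and 294 CPM, a log2 fold change of 1.54 (SE 0.16). Tox2, a relative of Tox, stood at 28.8, 16.5, 7.71 and 21.9 CPM, against at most 1.19 CPM.

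Genes of progenitor exhausted cells were split. Of 9 tested, 1 was higher (Cd28, the costimulatory receptor) and 4 were lower (Tcf7, Slamf6, Bach2 and Il7r). Cd28 lost the threshold without I-LC32 (adjusted p = 0.0619) or I-HC32 (0.0626), and Slamf6 in barcodes of 3000 to 15000 UMIs (0.217) and without I-HC32 (0.0594). Tcf7, which encodes TCF-1 of naive and progenitor cells, stood at 86.3, 114, 139 and 143 CPM against 230.4 to 361 CPM, a log2 fold change of -1.43 (SE 0.27, edgeR adjusted p = 0.0206). It lost the threshold in barcodes of 3000 to 15000 UMIs (adjusted p = 0.0995) and without P-HC24 (adjusted p = 0.0933). Il7r, the interleukin-7 receptor, stood at 352, 438, 373 and 729 CPM against 826 to 1319 CPM, a log2 fold change of -1.50 (SE 0.17).

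Killing genes were higher, with 7 of 11 granule and death ligand genes up and 1 down (Gzmm), at a median log2 fold change of 1.44. Against barcodes with Gzmk or Pdcd1 but no Tox, described below, none of the 11 passed. Gzmm lost the threshold under 7 alternatives, among them DESeq2 (adjusted p = 0.106), edgeR without TMM (0.103) and without P-LC24 (0.131), I-LC32 (0.111) or I-HC32 (0.0745). Prf1, the pore-forming perforin, stood at 162, 82.7, 95.5 and 142 CPM against 23.3 to 45.4 CPM, a log2 fold change of 1.44 (SE 0.14, edgeR adjusted p = 2.98e-05). Fasl, the death ligand, stood at 240.3, 105, 142 and 172 CPM, a log2 fold change of 1.72 (SE 0.26). Gzmb (granzyme B) stood at 379, 169.6, 296 and 136 CPM against 4.77 to 19.96 CPM, and its log2 fold change of 3.76 (SE 0.70, edgeR adjusted p = 0.0454) lost the threshold without P-HC24 (adjusted p = 0.0802), I-LC32 (0.167) or I-HC32 (0.135). Gzma (granzyme A) stood at 1456, 169.6, 417 and 28.5 CPM against 23.9 to 59.5 CPM. The groups overlapped for Gzma, whose adjusted p was 0.167 in edgeR and 0.0205 in DESeq2.

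Of 11 chemokines and cytokines tested, 4 were higher (Ccl3, Ccl5, Ifng and Il10) and 2 lower (Ltb and Tnfsf8). Ccl3, a chemokine that draws in other leukocytes, stood at 235, 219, 66.4 and 30.6 CPM against 1.19 to 4.06 CPM, a log2 fold change of 5.74 (SE 0.23, edgeR adjusted p = 4.24e-08). Ccl4 stood at 1011, 955, 363 and 138 CPM against 23.9 to 39.4 CPM, and its log2 fold change was 3.79 (SE 0.74, edgeR adjusted p = 0.0525), past the threshold in DESeq2. Both were higher in the week 24 than in the week 32 libraries of the same mice.

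Receptors that guide and hold cells in tissue moved in both directions, 7 of 14 up and 5 down. Cxcr6, the receptor that holds T cells in liver sinusoids, stood at 245, 86.9, 181 and 97.4 CPM against 10.7 to 36.2 CPM, a log2 fold change of 2.77 (SE 0.29, edgeR adjusted p = 0.00118). Itga4, the integrin alpha 4 chain, stood at 1281, 461, 1075 and 1005 CPM, a log2 fold change of 1.55 (SE 0.12). The tissue egress genes S1pr1 and Klf2 were lower, and so was Cd69, a marker of resident and of recently activated cells, at 199, 149, 189.8 and 260.4 CPM against 261 to 313 CPM.

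Every one of the 14 naive and quiescence genes tested was lower, at a median log2 fold change of -2.11. Of these, Ccr7 lost the threshold with no count filter (adjusted p = 0.0716), with the libraries of the same mice summed (0.105) and without P-HC24 (0.0776) or I-LC32 (0.122), and S1pr1 without P-HC24 (0.0861). Satb1, a chromatin organizer of naive T cells, stood at 89.4, 76.5, 74.7 and 115 CPM against 836 to 1219 CPM, a log2 fold change of -3.82 (SE 0.12, edgeR adjusted p = 1e-08). Dapl1 stood at 17.5, 26.9, 14.8 and 21.9 CPM against 146 to 242 CPM, a log2 fold change of -3.61 (SE 0.18).

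NK receptors were not raised as a list, with 1 of 13 higher (Klrk1, which encodes NKG2D) and 5 lower, at a median log2 fold change of -0.29. Cell cycle genes were, with 13 of 16 higher and a median of 2.98. Mki67, the proliferation marker Ki-67, stood at 55.5, 41.4, 72.4 and 79.9 CPM against 0.427 to 7.47 CPM, a log2 fold change of 3.97 (SE 0.64, edgeR adjusted p = 0.0155). It lost the threshold without I-LC32 (adjusted p = 0.0785) and with the libraries of the same mice summed (adjusted p = 0.217). Its UMIs came from 8, 4, 22 and 11 members, so that 5.48% to 10.0% of the members carried them. MHC class I genes rose by less, 10 of 12 with a median log2 fold change of 0.54, and 10 of 12 S100, galectin and annexin genes rose with a median of 1.44.

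**Figure D2:**
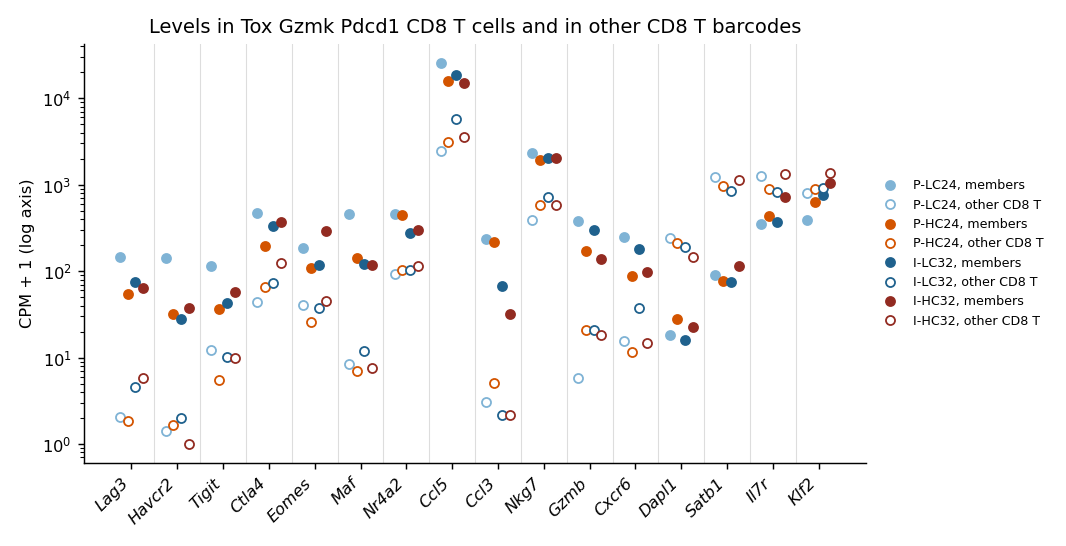
CPM plus 1 on a log axis (y) of 16 genes (x) in the members (filled points) and the other CD8 T barcodes (open points), 1 point per library. Lag3, Havcr2, Maf and Ccl3 lie far apart between the classes in every library, while Klf2 overlaps.

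**Figure D3:**
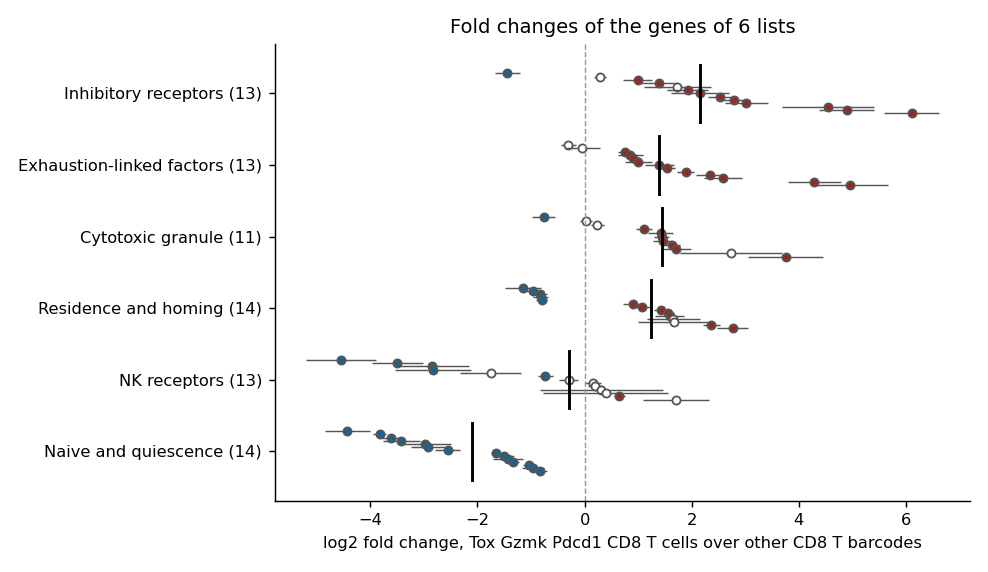
log2 fold change with its SE (x axis) of each tested gene of 6 lists (y axis, number of genes in brackets), members over other CD8 T barcodes. Red points were higher and blue points lower at an adjusted p of 0.05, white points did not pass, and black lines are list medians, 2.16 for inhibitory receptors and -2.11 for naive genes.

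Ly6c2 memory-like CD8 T barcodes were chosen by UMIs of Ly6c2 and of Cd44 or Il2rb, with no Tox, Gzmk or Pdcd1. They are a part of the other CD8 T barcodes, so this contrast shares cells with the one above. The name follows these gating genes only. They numbered 86, 120, 158 and 53. On 8757 genes, 822 were higher in the members (9.39%) and 915 lower (10.4%), and without TMM scaling 2144 and 528. Inhibitory receptors were higher in 9 of 13 and lower in 1, with a median log2 fold change of 2.55, against 0.00 over all genes. Lag3 had a log2 fold change of 5.45 (SE 0.36, edgeR adjusted p = 9.54e-08), and its level in the Ly6c2 class was 1.03, 2.50, 1.29 and 0 CPM. Satb1 was lower by a log2 fold change of -3.85 (SE 0.13), from 1136, 1001, 893 and 1095 CPM in the Ly6c2 class. Klrk1 was at 121, 94.3, 231 and 252 CPM there and had a log2 fold change of 0.09 (SE 0.12, edgeR adjusted p = 0.674). All 14 naive and quiescence genes tested were lower in the members than in this class, at a median log2 fold change of -1.88, as they were against the other CD8 T barcodes. The Satb1 levels of this class lay within the range of the other CD8 T barcodes. Whether its barcodes were memory or naive cells was not tested.

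The closest class was the 62 barcodes with Gzmk or Pdcd1 and no Tox, the class that the Tox gate alone keeps out. On 5745 genes, 95 were higher in the members (1.65%) and 85 lower (1.48%), and without TMM scaling 118 and 39. Lag3 stood at 0, 0, 5.68 and 30.6 CPM in that class and was higher in the members (log2 fold change 3.30, SE 0.62, edgeR adjusted p = 0.00108). Maf stood at 30.2, 50.7, 5.68 and 0 CPM there and was higher in the members (log2 fold change 2.98, SE 0.41, edgeR adjusted p = 1.08e-05). Of the list of inhibitory receptors, Lag3, Havcr2 and Tigit, 3 of 9 tested, passed. Havcr2 lost the threshold whichever library was left out, without P-LC24 (adjusted p = 0.147), P-HC24 (0.0611), I-LC32 (0.0652) and I-HC32 (0.0597), and Tigit without P-LC24 (0.0897). Nkg7, high in both classes, had a log2 fold change of 0.43 (SE 0.13, edgeR adjusted p = 0.0619). Of 11 granule and death ligand genes tested, none was higher and none lower, at a median log2 fold change of -0.03. Residence and homing genes had 2 of 13 higher (Itga4 and Rgs1) and 1 lower (Klf2), at a median of -0.47, and Cxcr6 did not pass. In DESeq2, 18 genes were higher and 59 lower, with adjusted p-values of 0.0723 for Lag3, 0.18 for Havcr2 and 0.14 for Tigit.

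Genes lower in the members than in this Tox-negative class included Ly6c2, Il7r and Satb1. Ly6c2, a surface antigen of memory cells, stood at 111, 122, 408 and 155 CPM in the members against 801, 1108, 1342 and 474 CPM, a log2 fold change of -2.40 (SE 0.23, edgeR adjusted p = 1.69e-06). Il7r had a log2 fold change of -1.41 (SE 0.17) and Satb1 of -2.25 (SE 0.21). Among the genes with the highest fold changes in this contrast were genes of macrophages (Alox15, C1qc and Fcer1g). Without the barcodes with 5 or more macrophage marker UMIs 65 genes were higher and 112 lower. The class held 11 to 23 barcodes a library, which limits what could be seen.

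The Prog comparison (P-HC24 over P-LC24) at week 24 rests on 58 against 146 members. Of 5966 genes with at least 30 UMIs, 216 were at least 2-fold higher (3.62%) and 985 at least 2-fold lower (16.5%), at a median log2 ratio of -0.33. Relative to that median, 521 were higher and 505 lower. Without the barcodes with macrophage marker UMIs the numbers were 102 (1.80%) and 819 (14.4%) of 5668. Inhibitory receptors lay on the lower side, with 10 of 13 at least 2-fold lower and none higher, at a median log2 ratio of -1.42 (9 of 12 and -1.72 without the macrophage-marked barcodes). Relative to the median ratio 8 were at least 2-fold lower. Pdcd1, which the rule used, is 1 of them.

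Havcr2 was counted 139 times in P-LC24 and 15 times in P-HC24, a Prog ratio of 0.217 (0.118 to 0.371), with its exact 95% interval in brackets. Cd160 had 121 and 5 UMIs, a ratio of 0.0832 (0.0265 to 0.200). Tigit had a ratio of 0.306 (0.172 to 0.512), Lag3 of 0.374 (0.236 to 0.571), Entpd1 of 0.361 (0.238 to 0.531) and Ctla4 of 0.419 (0.332 to 0.524). Without the macrophage-marked barcodes the ratios were 0.263 for Havcr2, 0.428 for Lag3 and 0.504 for Ctla4. In that setting the intervals of all 6 receptors lay below 1. With all members the 6 intervals lay below 1, and below the median ratio of 0.793 over all genes. These intervals treat UMIs as independent, so they do not cover the spread between members or between mice. Maf stood lower as well, at a ratio of 0.312 (0.239 to 0.403), and so did Itga4, at 0.360 (0.311 to 0.416). The intervals of Maf and Itga4 also lay below 1 without the macrophage-marked barcodes.

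Gzma was counted 1418 times in P-LC24 against 82 in P-HC24, a ratio of 0.116 (0.0920 to 0.146). Of 12 cytotoxic genes, with Gzmk that the rule used among them, 5 were at least 2-fold lower and 1 higher. Without the macrophage-marked barcodes 2 were lower and 1 higher, where 14.4% of all genes were lower. In that setting the interval of Gzmk lay above 1 and that of Gzma below 1. The interval of Ccl4 held 1, at a ratio of 0.945 (0.845 to 1.06). Of 16 genes of proximal T cell receptor signalling 8 were at least 2-fold lower (5 without the marked barcodes).

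On the higher side stood Klf2 at a ratio of 1.58 (1.35 to 1.84) and Vim, the intermediate filament vimentin, at 3.97 (3.35 to 4.71). Vim was also higher in the other CD8 T barcodes of P-HC24, at 545 against 249 CPM. Slamf6, a receptor of progenitor cells, was higher at a ratio of 1.73 (1.21 to 2.47), while the interval of Tcf7 held 1, at 1.32 (0.921 to 1.87). Without the macrophage-marked barcodes the interval of Tcf7 lay above 1, and those of Klf2, Vim and Slamf6 stayed above 1. Among the highest Prog ratios were those of the macrophage genes Pf4, Fn1 and Cxcl2. Nr4a1, an immediate target of T cell receptor signals, went from a ratio of 4.22 (2.88 to 6.28) to 1.37 (0.757 to 2.42) without the macrophage-marked barcodes.

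The Int comparison (I-HC32 over I-LC32) at week 32 was flatter. Of 7092 genes, 150 were at least 2-fold higher (2.12%) and 155 at least 2-fold lower (2.19%), at a median log2 ratio of 0.03. Of 12 inhibitory receptors 1 was at least 2-fold lower and none higher, at a median log2 ratio of 0.17. Without the macrophage-marked barcodes 153 of 7039 genes were higher (2.17%) and 154 lower (2.19%), and of the 12 inhibitory receptors 1 was lower and none higher, at a median of 0.16. Lag3 had a ratio of 0.848 (0.608 to 1.17), Havcr2 of 1.32 (0.820 to 2.11), Tigit of 1.35 (0.926 to 1.96) and Ctla4 of 1.12 (0.974 to 1.28), all with intervals that hold 1. Cd160 was the 1 receptor at least 2-fold lower, at 10 against 112 UMIs and a ratio of 0.165 (0.0769 to 0.314). Pdcd1, which the rule used, is among the 12, and its interval lay above 1, at 162 against 93.1 CPM.

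Of 12 cytotoxic genes none was higher by 2-fold and 2 were lower, at a median log2 ratio of -0.08. The counts did not change without the macrophage-marked barcodes. Gzmk, which the rule used, is 1 of the 12. Gzma had 26 UMIs in I-HC32 and 703 in I-LC32, a ratio of 0.0682 (0.0443 to 0.101). Gzmb had a ratio of 0.458 (0.373 to 0.559), Ccl4 of 0.380 (0.311 to 0.461) and Ccl3 of 0.461 (0.293 to 0.703). Plac8, which is found in effector and memory lymphocytes, had a ratio of 0.0609 (0.0330 to 0.103), and Ly6c2 of 0.381 (0.316 to 0.457). Prf1 went the other way, at 1.49 (1.17 to 1.89), as did Il7r at 1.96 (1.75 to 2.19) and Eomes at 2.47 (2.05 to 2.99). Gzma was thus lower in both libraries of the mice given high cholesterol, at 169.6 and 28.5 CPM, than in those of the other mice, at 1456 and 417 CPM.

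**Figure D4:**
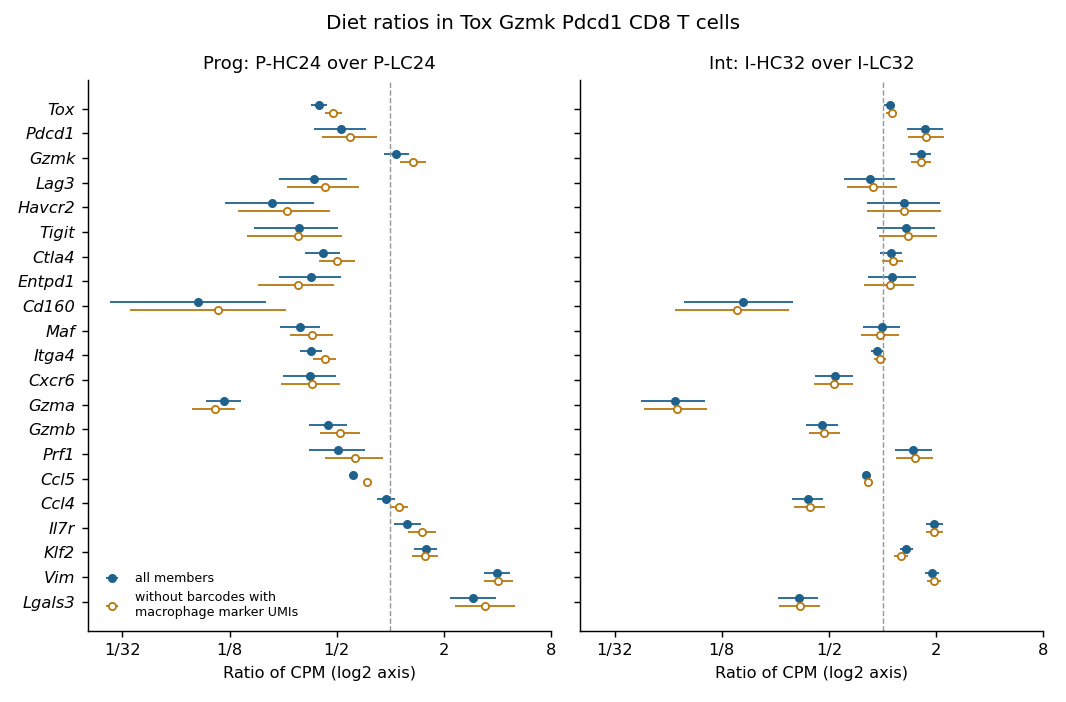
Ratio of CPM on a log2 axis (x) of 21 genes (y) in the members, P-HC24 over P-LC24 on the left and I-HC32 over I-LC32 on the right, with exact 95% intervals. Blue points hold all members and open points leave out barcodes with macrophage marker UMIs; Havcr2 is at 0.217 on the left and 1.32 on the right, and Gzma lies below 1 in both.

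A part of the P-LC24 members shared a T cell receptor beta V gene. Trbv13-1 was counted in 18 of the 56 P-LC24 members with any Trbv UMI, 32.1% (20.3 to 46.0), against 2 of 16 in P-HC24, 2 of 35 in I-LC32 and 0 of 30 in I-HC32, and against 4 of 127 of the other CD8 T barcodes of P-LC24. Reads from the 3' end cover V genes in few barcodes, 56 of 146 here, and hold no junction, so that whether these cells share 1 receptor was not tested. The subset was chosen after its values were seen. The V exon of Trbv13-1 (GRCm39 chr6:41093109-41093402, plus strand, 294 bases, in a gene at 41092941 to 41093402) is shown because the subset rests on it. Capitals mark the 33 bases that differ from Trbv13-2, to which it is 88.8% identical. Whether any reads were counted for the wrong copy was not tested.
Trbv13-1: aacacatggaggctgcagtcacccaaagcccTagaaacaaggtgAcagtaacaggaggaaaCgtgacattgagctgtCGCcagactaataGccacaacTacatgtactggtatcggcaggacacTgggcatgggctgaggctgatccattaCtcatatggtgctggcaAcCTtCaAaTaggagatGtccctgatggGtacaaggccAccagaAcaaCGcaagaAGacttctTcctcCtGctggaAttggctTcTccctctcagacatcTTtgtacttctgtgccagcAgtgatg

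The 18 members had no Trbc1 UMI and 344 UMIs of Trbc2, the other beta chain constant gene, while 22 of the 38 P-LC24 members with another Trbv gene had a Trbc1 UMI. Prss2, a trypsinogen gene that lies between the V and C genes of the Trb locus (GRCm39 chr6:41498717-41502013, before Trbc1 at 41515152), gave 0 UMIs in the 18 and 311 CPM in the 38. Prss2 stood at 271, 0, 100.2 and 12.04 CPM in the members of the 4 libraries. Havcr2 stood at 455 CPM in the 18, 105 CPM in the 38 and 87.6 CPM in the 90 without a Trbv UMI. Lag3 stood at 417, 132 and 85.8 CPM, Maf at 1170.5, 393 and 321 CPM, and Setbp1 at 2274, 502 and 464 CPM in these subsets.

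The subset thus held more Havcr2 and Lag3 transcripts than the rest of its library, and less Gzma, 775 against 1829 and 1449 CPM. Without members with a Trbv13-1 UMI, a choice made after the data were seen, 7 of 13 inhibitory receptors were at least 2-fold lower in Prog, at a median log2 ratio of -1.004, where 15.9% of all genes were lower. Pdcd1, which the gate uses, is among the 13. Members without any Trbv UMI stayed in, so members that carry Trbv13-1 without a UMI of it were not left out.

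**Figure D5:**
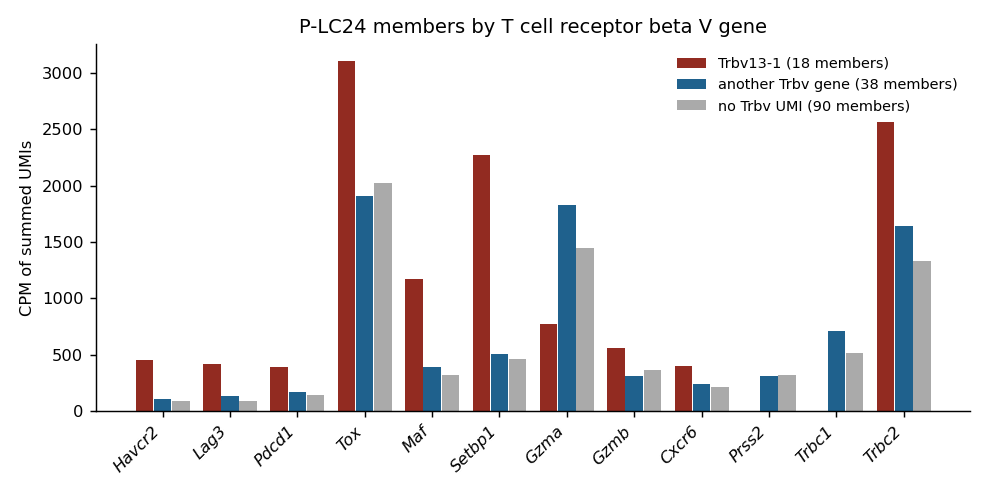
CPM of summed UMIs (y axis) of 12 genes (x axis) in the P-LC24 members with a Trbv13-1 UMI, with another Trbv gene and with no Trbv UMI. Havcr2 is at 455, 105 and 87.6 CPM, and Trbc1 and Prss2 are at 0 in the 18 members with Trbv13-1.

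Members with both Gzmk and Pdcd1 held more Lag3 transcripts than those with Gzmk alone in each library. Lag3 stood at 196 CPM in the 75 members with both and 62.1 CPM in the 61 with Gzmk alone of P-LC24, and at 178 and 37.6 CPM in I-LC32. In P-HC24 the levels were 72.9 and 33.2 CPM and in I-HC32 73.8 and 53.2 CPM. Gzma showed no such order across libraries. It stood at 1985 and 668 CPM in P-LC24 and at 453 and 454 CPM in I-LC32, while P-HC24 held 141 and 204 CPM and I-HC32 17.9 and 43.5 CPM.

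The promoters of Pdcd1, which chose members, and Ccl3, which was higher in them, are shown because NFAT, the factor that T cell receptor signals send to the nucleus, is known to act on both genes. Each is the 250 bases before the gene's start in RefSeq (GRCm38.p6, both genes on the minus strand), written in the direction of transcription, with capitals at the NFAT core GGAAA or its other-strand form TTTCC.
Pdcd1, chr1:94052554-94052803: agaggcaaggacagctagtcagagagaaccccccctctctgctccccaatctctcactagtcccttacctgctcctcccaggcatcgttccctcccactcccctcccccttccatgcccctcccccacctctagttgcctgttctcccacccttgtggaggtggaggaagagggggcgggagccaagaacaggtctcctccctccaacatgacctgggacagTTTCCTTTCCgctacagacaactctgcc
Ccl3, chr11:83649379-83649628: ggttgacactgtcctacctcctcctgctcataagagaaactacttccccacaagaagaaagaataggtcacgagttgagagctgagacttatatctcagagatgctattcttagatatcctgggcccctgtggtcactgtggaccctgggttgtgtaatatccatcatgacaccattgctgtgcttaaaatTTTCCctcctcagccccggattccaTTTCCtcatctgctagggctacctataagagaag

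Both windows hold 2 NFAT cores, and 55.6% of 32851 promoter windows of this length hold at least 1, with a median of 1 a window. The share of windows with 2 was not counted. The corresponding windows of Gzmk and Havcr2 hold none. A RUNX core TGTGGT, read on both strands, is found once in each of the Ccl3 and Havcr2 windows and in 14% of all windows, and an AP-1 site TGANTCA once in Havcr2 and in 6.75% of all windows. These matches are letters in a short window and were not tested for binding. Whether the marked cores are the sites at which NFAT is known to act was not tested, and such sites can lie outside the window.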

How the data were processed

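The 4 pooled libraries of mouse liver non-parenchymal cells were analysed, 1 for each condition. The deposited values are whole-number UMI counts per gene and barcode, which the authors made with 10x 3' chemistry and Cell Ranger 9.0.1 (submitters' processing notes) against GRCm39. The study's methods name SoupX for removal of free RNA, while the deposited counts are whole numbers, so free RNA may still be in them. Library totals ranged from 50941106 UMIs for P-LC24 to 89257239 for I-HC32.

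Barcodes were chosen by the limits given at the start of the report, and the members and gene lists were chosen with earlier results of these data known. UMIs were summed by library and class. Class contrasts used edgeR 4.0.16 (quasi-likelihood, TMM, filterByExpr, library as a term, Benjamini-Hochberg, threshold 0.05) in R 4.3.3, leaving out the gating genes, with DESeq2 1.42.0 as an alternative. With 1 library per condition, diet ratios are CPM ratios with exact conditional binomial 95% intervals, for genes with at least 30 UMIs, and shares carry Clopper-Pearson intervals (scipy 1.17.1). Scrublet was run through scanpy 1.11.5. The edgeR fit and the ratio intervals were tested on simulated data.

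Genes named were the gating genes and label markers, the 10 highest and 10 lowest fold changes per contrast (at least 50 CPM in the higher class; immunoglobulin, T cell receptor, haemoglobin, mitochondrial, ribosomal and unnamed genes left out), up to 4 abundant members of each list and any member of the exhaustion, cytotoxic, residence, naive and NK receptor lists, and the 6 highest and 6 lowest diet ratios (at least 60 UMIs). Vim, Lgals3, Setbp1, Trbv13-1, Trbc1, Trbc2 and the haemoglobin genes were named after their values were seen. Alternatives were DESeq2, no TMM, no count filter, other mitochondrial limits, a depth window, Scrublet ranks, other gates, denominators, folds and UMI minimums, and each library left out. Alternatives without macrophage-marked barcodes, with libraries of the same mice summed and without Trbv13-1 were added after the data were seen.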

Additional observations from a re-analysis of the deposited data

Results flagged for a closer look

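The members' share of CD8 T barcodes moved in opposite directions in the phases, by -13.5 percentage points in Prog and 13.5 in Int. The difference between the phases was not tested, since each condition has 1 library, and the Int direction turned with all T barcodes as the denominator.

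The haemoglobin genes lay above 1 in Prog and far below it in Int. The ratios were 3.05 and 0.0121 for Hbb-bs, 2.91 and 0.0103 for Hbb-bt, 2.55 and 0.00901 for Hba-a1, and 2.76 and 0.0115 for Hba-a2. The ratio of Lgals3, which encodes galectin-3, was 2.91 in Prog and 0.338 in Int. None of these differences was tested.

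The MHC class II genes H2-Aa and Cd74 had Prog ratios of 42.8 and 28.0 and Int ratios of 0.264 and 0.473. Without barcodes with 5 or more macrophage marker UMIs, the Cd74 ratio was 2.23 (1.24 to 4.00) in Prog and 2.41 (1.73 to 3.37) in Int, and the H2-Aa ratio was 1.90 (1.00 to 3.59) in Int, so that the Int direction turned for both. These differences between phases were not tested either.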

How the results depend on the processing

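Of the main counts and differences, 101 values under an alternative kept their direction and stayed within the limits set, 37 moved and 2 turned. The share of members had a Prog difference of -8.99 points with both Gzmk and Pdcd1 required, -8.96 of all T barcodes and -2.0005 of all kept barcodes, and an Int difference of -0.725 of all T barcodes and -1.13 of all kept barcodes. Against the other CD8 T barcodes, 2422 genes were higher and 686 lower without TMM, and 662 and 767 without I-LC32. Against the Ly6c2 class, 2144 and 528 were called without TMM and 521 and 555 by DESeq2. Against the class without Tox, 18 genes were higher by DESeq2, 171 with no count filter and 58 in barcodes of 3000 to 15000 UMIs, while 39 were lower without TMM, 30 with no filter and 39 at a mitochondrial limit of 5%. Leaving out a library gave 662 to 1110 higher and 767 to 1120 lower genes against the other CD8 T barcodes, 588 to 816 higher and 625 to 897 lower genes against the Ly6c2 class and 46 to 68 higher and 36 to 70 lower genes against the class without Tox. In Prog, 641 and 2128 genes were higher and lower at 1.5-fold, 1295 and 3209 at 1.2-fold, 72 and 374 with at least 100 UMIs, and 521 and 505 relative to the median ratio, and 102 were higher without macrophage-marked barcodes. In Int, 661 and 546 were higher and lower at 1.5-fold, 1873 and 1619 at 1.2-fold, and 34 and 35 with at least 100 UMIs. Fold, UMI minimum and number of libraries set these counts by construction, and the cause of the other moves was not tested.

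With the libraries of the same mice summed, adjusted p-values against the other CD8 T barcodes were 0.217 for Mki67 and 0.257 for Gzmb. For single genes in the class contrasts, 1215 values kept their call, 71 lost it and 21 gained it, and none changed sign. No paired analysis was possible because the diet comparisons come from no test, with 1 library in each condition and the same replicate number in all, and diet and set of mice cannot be told apart in them. The class contrasts held the library as a term, so each library was compared with itself. The class without Tox held 11 to 23 barcodes a library, and P-HC24 held 58 members in the Prog comparison.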

Other observations

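Gene groups not described above are given here by the intervals of their ratios. Over all genes, 797 of 7092 intervals lay above 1 and 611 below in Int, and 621 of 5966 lay above 1 and 1745 below in Prog (419 and 1295 of 5668 without macrophage-marked barcodes). Of 9 heat shock genes 7 had Int intervals above 1 and 1 below, at a median log2 ratio of 0.47. Of 10 interferon-stimulated genes 7 had intervals below 1 and 1 above, at a median of -0.63, and the 1 above was Irf7, a factor of the interferon response, at a ratio of 2.52 (1.85 to 3.45). Of 18 genes of oxidative phosphorylation 9 had intervals below 1 in Int and none above, at a median of -0.28, while in Prog 12 had intervals above 1 and none below, at a median of 0.42 (6 and none without macrophage-marked barcodes). The median log2 ratio over all genes was 0.03 in Int and -0.33 in Prog.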
